A study of Mus musculus with 7 samples.

Results

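Reads that can be placed only on transcripts annotated as targets of nonsense mediated decay (NMD) were counted in a deposited read table. It comes from a study of RNA recovered with Ezh2, the histone H3 methyltransferase of Polycomb repressive complex PRC2. Which library of the study gave the table is not known, and the libraries include one with IgG and one from Ezh2-null cells. A read was taken when it matched, in the orientation of the RNA, a single nuclear protein-coding gene of GENCODE M21 and when every best placement lay on a transcript of the type nonsense mediated decay. Such reads numbered 8510 (Poisson 95% interval 8330 to 8693) of 5475364 sense reads of nuclear coding genes. They lay at 1227 start positions of 308615 and in 473 genes of 15839 with a sense read. Each start position is a distinct transcript base where the matched part of reads begins, so adjacent bases count as separate starts. Several reads at 1 start can be PCR copies of 1 molecule. The intervals given for reads and shares therefore cover counting error only.

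The study sequenced RNA that came down with an antibody from nuclear lysates of mouse embryonic stem cells kept in medium with LIF (RNA immunoprecipitation sequencing, RIP-seq). The labels list 7 libraries. For 5 libraries, wild-type cells of the strain 129X(M.castaneusX129) gave the lysate for the anti-Ezh2 antibody. Among these 5, 1 is called a technical replicate and 2 are deeper runs of 2 lanes each. The words biological replicate stand in the title of 1 deeper run and of 1 other library. The same antibody was applied to M.musculus cells labelled Ezh2 null in 1 library, and IgG to wild-type lysate in 1. The values come from a single deposited table of 34072479 reads, and none of the labels says which library it belongs to. It was read as 1 pool, so there is no replicate spread, no IgG or Ezh2-null background and no test between groups, and whether a transcript was enriched with Ezh2 cannot be told from it. Of 31529044 reads long enough to be searched, 28.2% matched 1 gene in sense orientation and 52.6% matched no transcript with up to 2 mismatches. The 14 stem cell marker genes fixed for the check had 6 to 66761 sense reads, and the 15 fibroblast markers had 75 to 39715, with none of either list at 0. Lefty2, L1td1 and Tdgf1 had 66761, 29926 and 4569, and the other stem cell markers had at most the 624 of Zfp42. Of the fibroblast markers only Tagln, Thy1 and Pdgfra lay below 624, at 75, 327 and 519. The part of fibroblast RNA in the results was not tested.

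NMD is the pathway by which cells degrade mRNAs whose reading frame ends too early. A stop codon that lies well upstream of the last exon junction leaves an exon junction complex downstream of the terminating ribosome, and the factor Upf1 then commits the mRNA to decay. Because the check is made on translating mRNA, such transcripts are made and spliced in the nucleus before they are removed. Many splicing factor genes use an extra exon with a stop codon, often called a poison exon, to lower their own output. In the annotation, NMD is a label given to a transcript model from the place of its stop codon, and no decay is measured by it. All 473 transcripts that held most NMD-only reads of their genes had the stop codon over 50 bases before the last junction, at a median of 511 bases.

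The NMD-only exons whose sequence carries the early stop are illustrated by 5 genes with reads on them. Each run goes from the first base of the exon to the stop codon, which is in capitals, in the direction of the RNA, from the GENCODE M21 transcripts (GRCm38). They are Tra2a at chr6:49252965-49253108 on the minus strand, Mtf2 at chr5:108099654-108099729 on the plus strand, Supt5 at chr7:28337940-28338023 on the minus strand, Nmd3 at chr3:69729946-69730023 on the plus strand and Abl1 at chr2:31690555-31690634 on the plus strand.
Tra2a: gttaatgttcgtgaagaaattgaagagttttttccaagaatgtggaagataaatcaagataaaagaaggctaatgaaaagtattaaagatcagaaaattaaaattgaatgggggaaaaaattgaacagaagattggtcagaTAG
Mtf2: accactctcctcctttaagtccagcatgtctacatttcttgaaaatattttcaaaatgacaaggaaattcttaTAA
Supt5: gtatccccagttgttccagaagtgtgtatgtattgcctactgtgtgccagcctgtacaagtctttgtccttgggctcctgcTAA
Nmd3: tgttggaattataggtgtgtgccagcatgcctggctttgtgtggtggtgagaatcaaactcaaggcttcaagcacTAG
Abl1: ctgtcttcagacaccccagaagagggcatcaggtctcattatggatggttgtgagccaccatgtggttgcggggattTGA
The exon of Tra2a, a splicing activator related to the SR proteins, had 178 reads at 25 start positions. The exon of Mtf2, a PRC2 partner that binds CpG-rich DNA, had 27 reads at 1 start. The exon of Supt5, a transcription elongation factor, had 11 reads at 5 starts. Nmd3, an adaptor for export of the large ribosomal subunit that is no NMD factor despite its symbol, had 38 reads at 1 start. Abl1, a tyrosine kinase, had 38 reads at 8 starts.

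A junction that only NMD transcripts contain marks a spliced RNA. The 6 junctions below have reads with at least 8 bases on each side and lie within the coding sequence of the NMD transcript or at its edge. They were chosen after their values were seen, and the junctions of Arih2 and 4932438A13Rik, which lie outside the coding sequence, are left out. Each run shows 15 bases of the upstream exon in lower case and 15 of the downstream exon in capitals. The introns removed are chr11:51270596-51271799 in Clk4, chr5:72529505-72537365 in Nfxl1, chr6:113255844-113260587 in Mtmr14, chr5:108099732-108100812 in Mtf2, chr17:56597816-56599622 in Safb and chr5:92152501-92187704 in Uso1.
Clk4: ggacactcatcccagTCACTATTTAGAAGC
Nfxl1: cagtgtaggagaaagGCAGTTGCTATCCAT
Mtmr14: cacctttttgataagGTTGTGAATTCTTCA
Mtf2: gaaattcttataaatGTTTATGTCTGGGAA
Safb: catctttggagccagTTCTGTGGAGGAGGA
Uso1: gaccgaagaaatgctGACAGATTGCAGAAA
The junctions of Clk4 and Mtf2 follow an exon that no other transcript type holds. Those of Nfxl1, Mtmr14, Safb and Uso1 lie within the coding sequence of the NMD transcript.

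NMD-only reads were a small share of the coding signal. They made up 0.155% of the sense reads of nuclear coding genes (exact Clopper-Pearson 95% interval 0.152% to 0.159%). With each start position counted once the share was 0.398%, and with each distinct sequence once it was 0.207%, since an NMD-only start carried 6.94 reads on average and a start on coding transcripts 18.5. A larger set of 1380663 reads, 25.2% of the coding sense reads, had an NMD transcript among their best placements, most of them beside other transcripts of the same gene. An annotated NMD transcript exists for 4574 of the 21938 nuclear coding genes, and 4043 of these had a sense read. Within the 4574 genes, 0.363% of sense reads were NMD-only. For scale, reads confined to retained intron transcripts made up 3.45% of the coding sense reads and lay in 4459 genes.

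The sequence that only NMD transcripts hold was read less densely than the coding transcripts of the same genes. In 2347 genes with such exon sequence, a coding transcript and a sense read, NMD-only sequence spanned 945.1 kb, or 8.20% of the length. It had 8.55 reads per kb, against 72.0 reads per kb of coding transcripts, a ratio of 0.119. By start positions the densities were 1.22 and 4.74 per kb, a ratio of 0.257. In the 1721 genes that have both NMD-only and retained-intron-only sequence, the densities of these 2 kinds lay close together. They were 9.55 and 11.4 reads per kb, and 1.29 and 1.41 start positions per kb, with coding transcripts at 84.6 reads and 5.30 starts per kb. The NMD-only values count only reads that touch an NMD-only base. The retained-intron-only values can also include reads assigned by a junction alone. A read was found on the NMD-only sequence of 310 of these genes and on the retained-intron-only sequence of 954, which is also longer, at 3406 kb against 656.5 kb. Introns that no transcript model keeps were not searched, so reads within a single NMD-only exon cannot be told apart from unspliced precursor RNA.

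**Figure D1:**
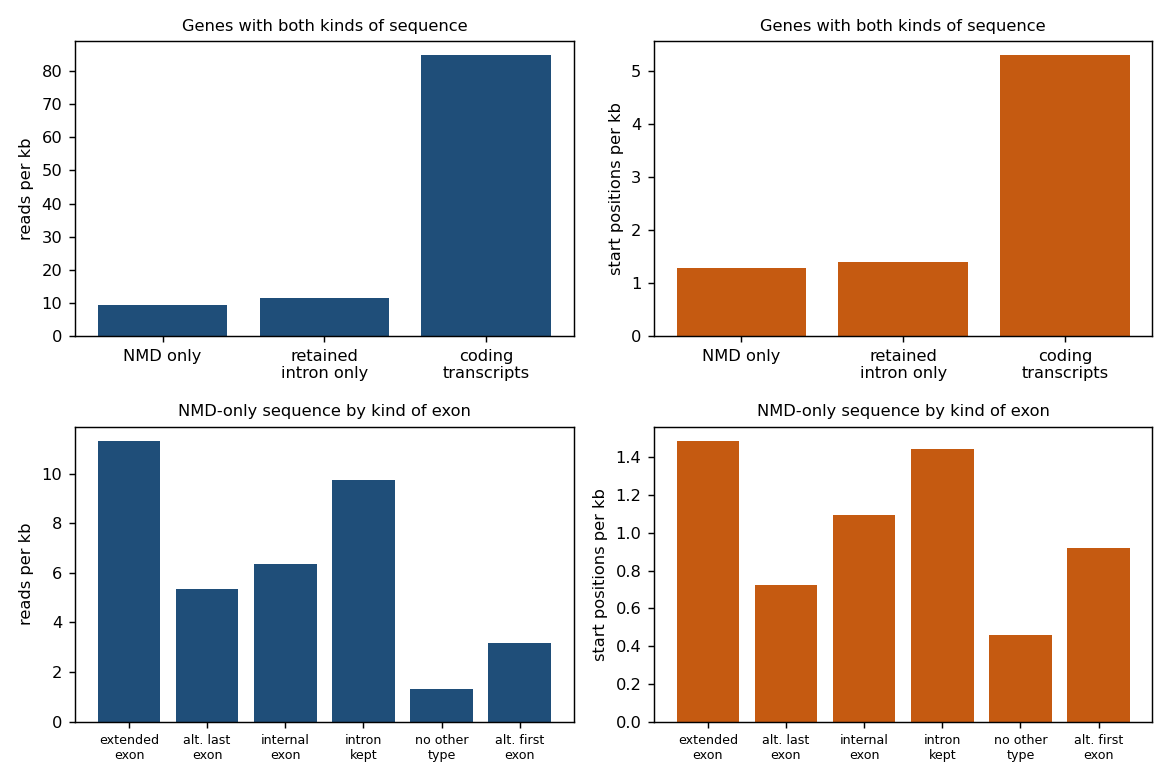
Upper panels: reads per kb (left) and start positions per kb (right) of NMD-only, retained-intron-only and coding transcript sequence in the 1721 genes that have both of the first 2 kinds. Lower panels: the same densities on NMD-only sequence by kind of exon, where extended exons stand highest at 11.3 reads and 1.49 starts per kb. All values are from 1 pooled table, without error bars.

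Most NMD-only reads lay in parts of exons that other transcripts splice out. Exons that an NMD transcript extends past the edge used elsewhere held 4318 reads, 50.7% of the total, at 567 starts in 204 genes. Internal exons absent from the other transcript types, the class to which poison exons belong, held 1318 reads (15.5%) at 227 starts in 117 genes. Introns kept within an exon of the NMD transcript held 1247 reads (14.7%) in 59 genes, and alternative last exons 1117 reads (13.1%) in 58 genes. A further 373 reads (4.38%) touched no NMD-only base and were assigned by their junction alone. Extended exons and kept introns were read at 11.3 and 9.74 reads per kb, and internal and alternative last exons at 6.34 and 5.36 reads per kb. NMD-only sequence inside an intron of another transcript type was 59.4% of the length. It held 76.7% of the reads that touched an NMD-only base, at 10.6 reads per kb. The remaining 403.7 kb, mostly beyond the ends of the other transcripts, had 4.70 reads per kb. It includes 43.7 kb in genes without another transcript type, at 1.33 reads per kb.

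Within the NMD transcripts, 7326 reads (86.1%, interval 85.3% to 86.8%) lay after the stop codon. The stretch after the stop is also 82.8% of the NMD-only length and held 88.4% of the reads that touched an NMD-only base. The densities were 8.74 reads and 1.20 start positions per kb after the stop and 6.87 reads and 1.19 starts per kb within the coding sequence. Before the coding sequence they were lower, at 3.21 reads and 0.875 starts per kb. Reads within the coding sequence numbered 933 and reads before it 251. Within 100 bases of the stop codon on either side lay 1727 reads (20.3%) of 161 genes. At the other end of the range, 1620 reads (19.0%) lay over 2000 bases after it.

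**Figure D2:**
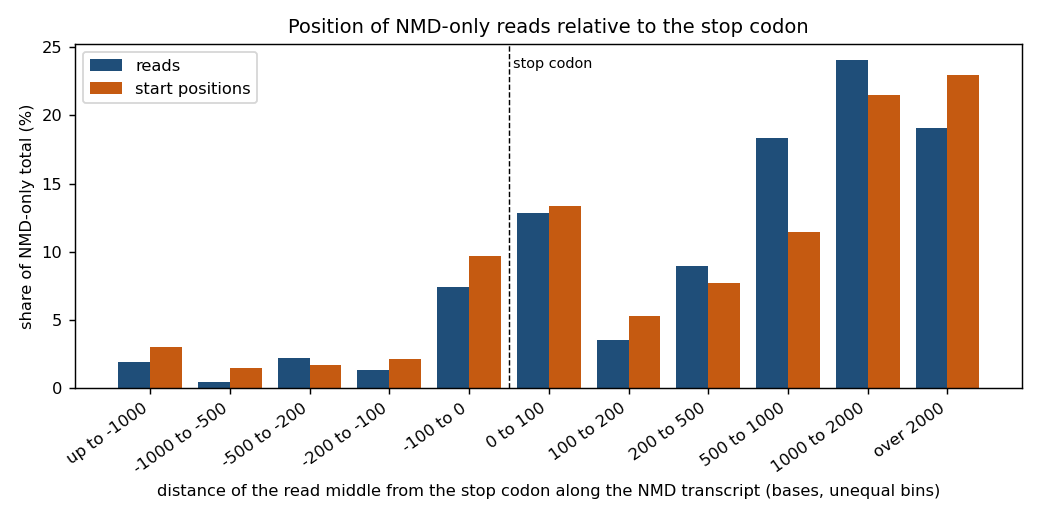
Share of NMD-only reads (blue) and of NMD-only start positions (orange) by the distance of the middle of the read from the stop codon along the NMD transcript, in bases and in bins of unequal width. The bin from 1000 to 2000 bases after the stop holds 24.0% of the reads.

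The reads were spread unevenly over the 473 genes. The median gene had 4 reads, 121 genes had a single read and 263 had a single start position. At the upper end, 160 genes had at least 10 reads, 33 at least 50 and 18 at least 100. The 10 genes with most reads held 31.2% of the total and the 25 with most held 51.8%. Of the 160 genes with at least 10 reads, 58 had 5 or more start positions and 35 had a single one, so a count of 10 reads can rest on few molecules.

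**Figure D3:**
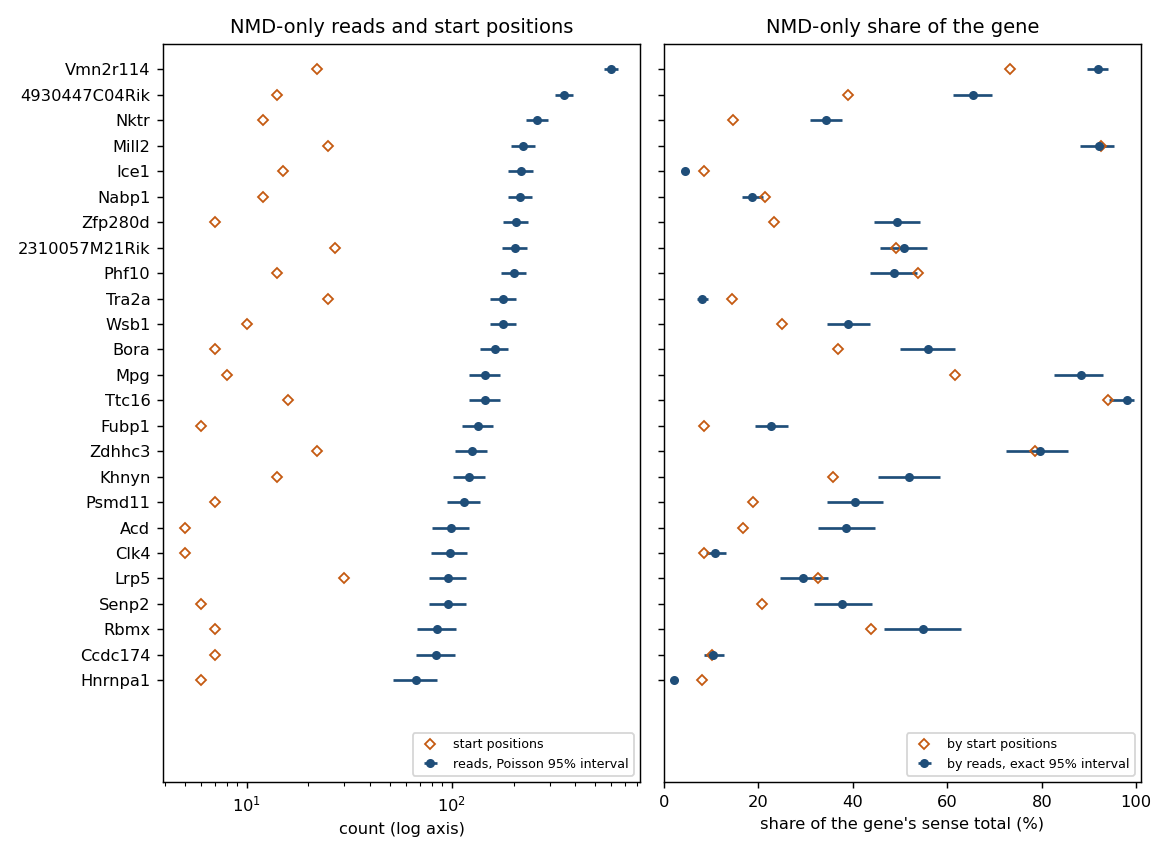
The 25 genes with most NMD-only sense reads. Left, reads with Poisson 95% intervals (filled) and start positions (open) on a log axis. Right, the NMD-only share of the gene's sense total in percent, by reads with exact 95% intervals (filled) and by start positions (open); Vmn2r114, Mill2, Mpg, Ttc16 and Zdhhc3 stand above 79% by reads, while Ice1, Tra2a and Hnrnpa1 lie below 10%.

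The agreement of reads with the annotated sequence divided these genes. Of all NMD-only reads, 69.5% matched without a mismatch (68.5% to 70.5%), against 88.9% of reads on coding transcripts and 77.3% of reads confined to retained introns. With each distinct sequence counted once the shares lay closer together, at 54.7%, 63.0% and 59.1%. Among the 160 genes with at least 10 reads, 76 genes with 4109 reads had at least 90% of reads without a mismatch, and 42 genes with 2028 reads had under 50%. No other gene lay within 1 further mismatch for 87.1% of NMD-only reads, against 95.3% of coding reads. Placements beyond 2 mismatches were not searched, so a read that matched with 2 mismatches passed this check untested. Such reads were 12.7% of NMD-only reads and 2.57% of coding reads. The wild-type cells carry M. castaneus sequence in part, per the labels, and a strain difference, a sequencing error and a read from an unsearched copy cannot be told apart here.

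**Figure D4:**
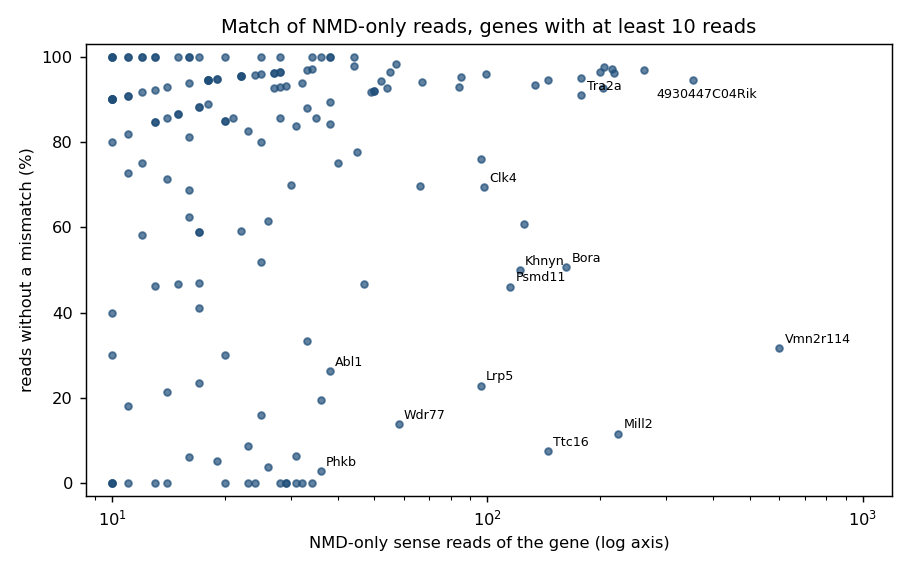
Each point is a gene with at least 10 NMD-only sense reads, 160 in all. The horizontal axis gives its NMD-only reads on a log scale and the vertical axis the percent of them without a mismatch; 76 genes lie at 90% or above and 42 below 50%, among them Vmn2r114, Mill2, Ttc16 and Lrp5.

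Vmn2r114, a vomeronasal pheromone receptor, had the most NMD-only reads, 599 at 22 start positions of 651 sense reads of the gene (92.0%). All 599 lay on exon 5 of Vmn2r114-202, an extended exon at chr17:23296865-23302067. Of these reads 31.7% matched without a mismatch, and 115 had no other gene within 1 further mismatch. The gene belongs to a family of near-identical copies, so its count is uncertain. Mill2, an MHC class I-like gene, had 223 of 242 reads (92.2%) at 25 starts, 11.7% of them without a mismatch. Ttc16, which encodes a tetratricopeptide repeat protein, had 145 of 148 reads (98.0%), 7.59% without a mismatch and 23 without another gene near by the same count. In these 3 genes a high share went with poor agreement with the reference.

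Other genes combined many reads with close agreement. 4930447C04Rik, a synaptonemal complex gene, had 353 reads at 14 starts, 65.5% of its sense reads, with 94.6% free of mismatches. They lay on an extended exon at chr12:72908512-72909813. Many were at close starts from 72908878 to 72908887, the last of which had 107 reads. Nktr, which encodes a cyclophilin with an RS domain, had 261 reads at 12 starts of 762 sense reads (34.3%), 96.9% without a mismatch. Both had reads on a single extended exon, with none across an NMD-only junction. In Nktr the adjacent starts 121738762 and 121738763 held 94 and 87 reads. Mpg, the DNA glycosylase that removes alkylated purines, had 145 reads at 8 starts of 164 (88.4%), with 94.5% free of mismatches. Phf10, a subunit of the PBAF chromatin remodelling complex, had 200 of 411 reads (48.7%) at 14 starts. 2310057M21Rik had 203 of 400 reads (50.8%) at 27 starts, and its share by start positions was 49.1%.

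Kept introns and alternative ends gave the next group. Ice1, a subunit of the little elongation complex of small nuclear RNA genes, had 217 reads at 15 starts on an exon with a kept intron, 4.38% of its 4950 sense reads. Zfp280d, a zinc finger gene, had 205 of 415 reads (49.4%) at 7 starts. Fubp1, which encodes a single-stranded DNA and RNA binding protein, had 134 of 591 reads (22.7%) at 6 starts, 70 of them at 1 start. Nabp1, a single-stranded DNA binding protein of DNA repair, had 215 of 1152 reads (18.7%) at 12 starts, all on the alternative last exon at chr1:51465862-51469086. Wsb1, a substrate receptor of a ubiquitin ligase, had 178 of 457 reads (39.0%) at 10 starts. Rbmx, the X-linked hnRNP G gene, had 85 of 155 reads (54.8%) at 7 starts on its alternative last exon. In Nabp1, Zfp280d and Rbmx at least 95% of the reads had no mismatch.

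Several of the 25 genes rested on reads that stood apart. Bora, an activator of Aurora A kinase, had 162 reads at 7 starts, 82 of them at 1 start, and 153 were 36 bases long. Over the whole NMD-only set 12.2% of reads had that length, so Bora came almost wholly from one read length of the table. Khnyn, a partner of the antiviral protein ZAP, had 122 reads, 69 at 1 start, with 50% free of mismatches. Acd, the shelterin subunit TPP1, had 99 reads, 74 at 1 start. Lrp5, a co-receptor of Wnt ligands, had 96 reads at 30 starts, the most starts of any gene with at least 10 reads, but 22.9% were free of mismatches. Senp2, a SUMO protease, had 96 reads at 6 starts, all within the annotated coding sequence. Zdhhc3, a palmitoyltransferase, had 125 of 157 reads (79.6%) at 22 starts. Of the 125, 77 lay on the alternative last exon of Zdhhc3-207, at a mean of 0.0779 mismatches. Another 43 lay on an internal exon of Zdhhc3-206, at a mean of 1.84 mismatches. Psmd11, a proteasome lid subunit, had 115 of 285 reads (40.4%), 46.1% free of mismatches. Ccdc174 had 84 of 801 reads (10.5%) at 7 starts.

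As a share of the gene, NMD-only reads were mostly minor. Of 2003 genes with an NMD transcript and at least 50 sense reads, 294 had an NMD-only read, at a median share of 2.58%. In 90 of the 294 the share was under 1%, in 124 from 1% to under 10%, in 61 from 10% to 50% and in 19 above 50%. For 12 genes the exact interval lay wholly above 50%. Beside Vmn2r114, 4930447C04Rik, Mill2, Mpg, Ttc16 and Zdhhc3 these were Msh3, Mapkapk5, Dusp12, Xkr6, Aire and Deaf1. Msh3, a mismatch repair gene, had 66 of 90 reads. Mapkapk5, a stress-activated kinase, had 55 of 55 reads at 4 starts, and Xkr6 had 50 of 50 at 5 starts. Dusp12, a phosphatase, had 50 of 59 reads at 2 starts. None of the 12 genes had 50 start positions, so the interval by start position was not judged for them. By start position the shares of Mill2, Ttc16, Zdhhc3 and Vmn2r114 were 92.6%, 94.1%, 78.6% and 73.3%, while those of 4930447C04Rik, Msh3 and Dusp12 were 38.9%, 41.7% and 40%.

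Reads across junctions that only NMD transcripts contain numbered 755, 8.87% of the NMD-only reads (8.28% to 9.50%), at 128 starts in 89 genes. In 339 of them, at 56 starts in 43 genes, at least 8 bases lay on each side of the junction, and 92.3% of these had no mismatch. The remaining 7755 reads lay inside 1 exon. For reads on coding transcripts the share across any junction was 22.3%. These shares are not alike, because a read only across a junction shared with another transcript type is not NMD-only by the rule.

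**Figure D5:**
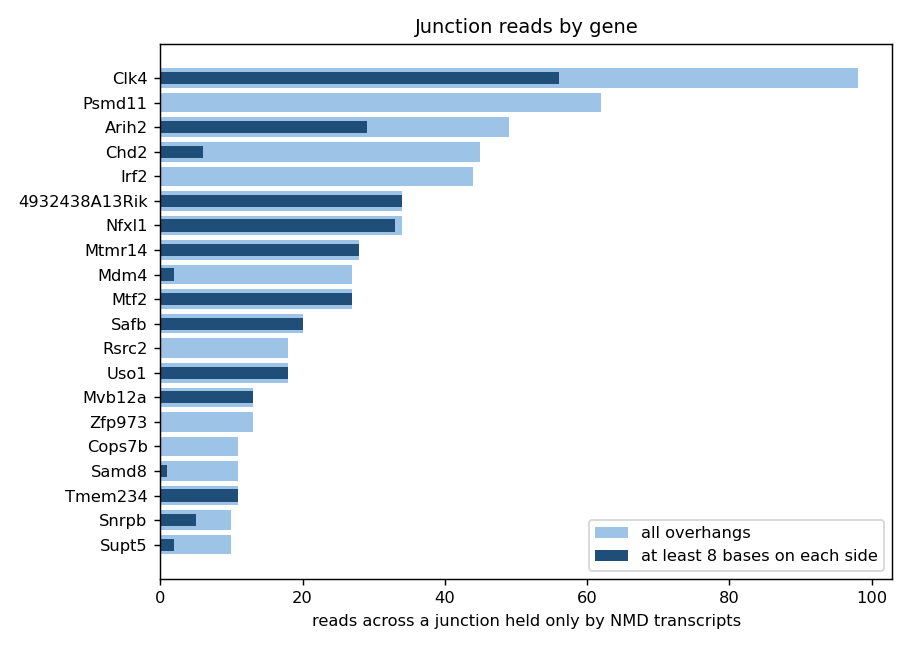
The 20 genes with at least 10 reads across junctions held only by NMD transcripts. Pale bars count all such reads and dark bars those with at least 8 bases on each side of the junction; Clk4 has 98 and 56, while Psmd11 and Irf2 have none of the second kind.

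Clk4, a kinase that phosphorylates SR proteins, had the most junction reads. At 4 start positions, 75 reads crossed from the 59-base exon at chr11:51270537-51270595 into the next exon, 56 of them with at least 8 bases on each side. Another 23 reads at 1 start lay on the junction before it, with 2 mismatches each and a shorter overhang. All 98 NMD-only reads of Clk4 were thus junction reads, 10.9% of its 903 sense reads. Arih2, a ubiquitin ligase, had 49 junction reads at 7 starts, 29 with the longer overhang. Nfxl1, a zinc finger gene, had 34 at 3 starts, 33 with the longer overhang and 100% free of mismatches, yet these were 0.252% of its 13520 sense reads. 4932438A13Rik had 34 reads and Mtmr14, a phosphoinositide phosphatase, 28, all with the longer overhang and each gene at 1 start. Uso1, a tether of Golgi vesicles, had 18 at 3 starts and Safb, a nuclear matrix protein, 20 at 1 start.

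Where only a short overhang crosses the junction, few bases tell the NMD transcript from the unspliced RNA. This was the case for 62 reads of Psmd11, 44 reads of the interferon regulatory factor Irf2 at 1 start, none of which had 8 bases on each side. Of 27 junction reads of Mdm4, an inhibitor of p53, 2 had the longer overhang.

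Internal NMD-only exons could be compared with their skipping. Of 123 such exons with reads, 88 held the stop codon and 88 had a length that is no multiple of 3, with a median length of 153 bases. A junction that skips the exon is annotated for 97. On these 97, 28 reads crossed the upstream and 102 the downstream junction of the exon, while 1809 reads skipped it. Of the skipping reads 920 came from Abcf1, a translation-associated ABC protein gene, whose exon had 1 inclusion read, and 418 from Supt5. Reads of both kinds were found for 10 exons, and for 67 neither kind was found. In Mtf2 the exon at chr5:108099654-108099731, 78 bases long, had 27 downstream junction reads at 1 start against 74 skipping reads at 7 starts. Of these downstream and skipping reads 26.7% included the exon (18.4% to 36.5%), but 0 reads crossed its upstream junction. In Chd2, a chromatin remodeller, the exon at chr7:73454691-73454814 had 45 downstream junction reads at 7 starts against 148 skipping reads at 10 starts, or 23.3% (17.5% to 29.9%). Of the 45 reads, 6 had the longer overhang, and 0 reads crossed the upstream junction. The 47 reads of this exon had a mean of 0.638 mismatches, and the 23.3% rests mostly on short overhangs. In Supt5 the exon at chr7:28337927-28338023 had 9 downstream junction reads against 418 skipping reads, or 2.11%, and 1 upstream junction read.

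Tra2a had the internal exon with most reads. Its 306 bases at chr6:49252803-49253108 held all 178 NMD-only reads of the gene at 25 starts, 8.14% of 2187 sense reads. They were spread on both sides of the stop codon, 92 before it and 86 after it, and 91.0% had no mismatch. A single read touched an NMD-only junction and 0 reads skipped the exon, so junction reads give no measure of how often it was included. The start with most reads had 35, and others had 26, 25 and 16, so the count did not rest on 1 position.

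The gene lists fixed for the pathway and its known targets were read against all 2003 genes with an NMD transcript and at least 50 sense reads, of which 14.7% had an NMD-only read. An NMD transcript need not hold sequence of its own. Of the 4574 genes with one, 2623 have NMD-only exon sequence and a coding transcript. This was not counted for the lists, so 0 NMD-only reads cannot be told apart from a lack of such sequence or junctions. Of the NMD factors, 5 have an annotated NMD transcript, and 0 of their 2954 sense reads were NMD-only, which allows a share of up to 0.102%. Among them Smg1, the kinase that phosphorylates Upf1, had 1045 sense reads. Upf1, the helicase at the centre of the pathway, had 39 sense reads and has no annotated NMD transcript, so that no read of it could be counted here. Of the exon junction complex genes with an NMD transcript, 2 in all, neither had an NMD-only read. Among genes of decapping, deadenylation and exonucleases, 2 of 9 with at least 50 reads had one. They were Cnot1, the scaffold of the CCR4-NOT deadenylase, with 33 reads of 623 at 8 starts, and Parn, a deadenylase, with 8 of 147.

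SR proteins and their relatives had an NMD-only read in 8 of 21 genes with an NMD transcript and at least 50 sense reads (38.1%). Their NMD-only reads numbered 290 of 163618 (0.177%), and Tra2a gave 178 and Clk4 98 of them. Most of the 163618 sense reads came from Srsf11, an SR-related splicing factor, with 85028 and Pnisr, which encodes an SR-related protein, with 36545, neither with an NMD-only read, so the share over the list follows these genes. Son, a large scaffold of nuclear speckles, had 5 of 19568 reads and Luc7l2, a U1 snRNP associated protein, 2 of 901. HnRNPs and other splicing regulators had one in 8 of 32 genes (25%), with 252 reads of 39021 (0.646%). Beside Fubp1, Hnrnpa1 had 67 reads of 3062 (2.19%) at 6 starts, 94.0% of them without a mismatch. Hnrnpd had 28 of 885 at 1 start, and Snrpb, a core protein of spliceosomal snRNPs, had 10 of 857 (1.17%) at 2 starts, all across a junction and 5 of them with at least 8 bases on each side. Where no other transcript type of the gene lay within 1 further mismatch, the share of Snrpb was 0.587%.

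Ribosomal protein genes with an NMD transcript and at least 50 reads had an NMD-only read in 0 of 10, and Rpl14 had 2 of its 24 reads. Of 20 stress and polyamine genes known as NMD targets, 4 have an NMD transcript and at least 50 reads, and 1 of these 4 had NMD-only reads (25%). It was Odc1, ornithine decarboxylase, with 30 of 18740 reads (0.160%) at 6 starts. Among PRC2 subunits it was likewise 1 of 4 (25%), Mtf2, with 27 of 1145 reads (2.36%). Ezh2 itself, the target of the antibody, had 12795 sense reads of which 0 were NMD-only, which allows a share of up to 0.0234%. Whether Ezh2 has sequence or junctions held only by an NMD transcript was not examined. The pluripotency factor Pou5f1 has no annotated NMD transcript and could not have such a read.

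On the opposite strand, 6156 reads at 735 starts in 350 genes lay only on NMD transcripts. Antisense reads thus made up 42.0% of NMD-only reads of either strand, against 12.5% for all nuclear coding genes and 25% for retained-intron-only reads. A single gene, the zinc finger family member Gm14296, gave 2284 of them at 25 starts, with 4.16% free of mismatches. Without it the share was 31.4%. By start positions it was 37.5% with this gene and 36.8% without, against 34.96% for retained-intron-only and 22.9% for all nuclear coding starts. Abl1 had 362 antisense against 38 sense NMD-only reads, Gtf2i 286 against 0 and Pqlc3 265 against 2. The antisense reads of Gtf2i lay at 2 starts and all had a mismatch, while 88.1% of those of Abl1 and 87.5% of those of Pqlc3 had none. These 4 genes were chosen after their values were seen.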

How the data were processed

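The deposited table holds, per distinct read sequence, the authors' raw read count, without a header or coordinates. The submitters' processing notes name mm9. No statement of the authors' aligner was found. The name of the deposited table carries the marks uniq, noribo and nohomop. Read plainly, these stand for unique reads with ribosomal and homopolymer sequence removed, but no rule or threshold for such filters was found. The totals and matched shares therefore describe reads that had probably been filtered already. The marks WT and BR in the same name were not used to assign the table to a library. All coordinates are those of GRCm38 (GENCODE M21).

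The 6 leading bases were left out, reads of at least 26 bases were matched to GENCODE M21 transcripts with bwa 0.7.19 (up to 2 mismatches, no gaps, up to 1000 placements), and orientation is that of the RNA. No genome was searched. Where genes overlap on opposite strands, the sense gene was preferred. The assignment was tested on simulated data. Shares carry exact 95% intervals (scipy 1.17.1), with 3 counts as the limit where none was found. Without a link from the table to a library, no comparison between groups was made.

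The genes and gene lists were chosen with earlier results of these data known. The genes named are the 25 with most NMD-only reads, the 10 with most among those with an interval above 50%, the 10 with most junction reads, up to 4 of each list, and Ezh2, Pou5f1, Upf1 and Smg1. Others were named to illustrate a sequence or complete a count of few genes, after their values were seen. Alternatives changed the mismatches, read length, margins, counting unit, transcript support level and leading gene.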

Additional observations from a re-analysis of the deposited data

How the results depend on the processing

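No paired analysis was possible because the values come from 1 table with no link to a library. The NMD-only share of coding sense reads, 0.155%, was 0.122% without mismatches, 0.142% where no other gene lay within 1 further mismatch, 0.207% by distinct sequence, 0.398% by start position (a start shared with other reads counts for both), 0.174% in 36-base reads, 0.150% in 40-base reads, 0.0762% on NMD transcripts of support level 1 and 0.145% without Vmn2r114. By distinct sequence, by start position, in 36-base reads and at support level 1, the 8510 reads became 2230, 1227, 1038 and 4169, and the 160 genes with at least 10 became 47, 18, 17 and 74. The 1227 starts became 520 in 36-base reads and 593 at support level 1. The 12 genes above 50% became 4 by distinct sequence, 0 by start position and 1 in 36-base reads, under a minimum of 50 per gene that none of the 12 meets by start position or in 36-base reads. The junction share, 8.87%, was 9.98% with the margin to other genes, 9.91% by distinct sequence, 10.4% by start position, 5.81% at support level 1 and 9.54% without Vmn2r114. These settings count fewer or other units, and beyond that the cause was not tested. Of 45 named genes with a share, 34 moved outside their interval by start position and 38 in 36-base reads, but 9 in 40-base reads and 0 with a margin to the gene's other transcripts. The 40-base reads were 83.9% of the NMD-only reads, so that setting mostly repeats the main count. Neither margin tests a read with 2 mismatches, since placements beyond 2 were not searched. For the 121 genes with 1 read, the depth gives no measure of spread.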
